A study of Mus musculus with 2 samples.

Results

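Fatty acid elongases are the membrane enzymes that start each round of chain lengthening in the endoplasmic reticulum, and the mouse genome encodes them as Elovl1 to Elovl7. The members described here are the 7 Elovl genes, found through the platform annotation of an Affymetrix whole-transcript array, where each had 1 probe set. They make up 7 of the 19938 genes named on the array. Membership follows the gene annotation, and the family itself was chosen by the intensity differences between these same 2 arrays, so the values below are a description of it and no test.

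The tissue was inguinal white fat, a subcutaneous depot, taken from male littermates on the C57BL/6J background. One group carried no functional ApoE (ApoE-/-, labelled ApoE-KO) and the other lacked both UCP1 and ApoE (Ucp1-/-;ApoE-/-, labelled DKO), so the loss of ApoE, a lipoprotein ligand, was common to both groups and no wild-type sample was part of the comparison. All mice lived at 23 °C on standard chow and were switched at 9 weeks of age to a high-fat diet for 9 weeks. For each genotype the RNA of 3 mice was combined and put on 1 array, so there were 2 arrays, 1 per genotype, and the spread between mice was not measured. No value below has a replicate check, no p-value is given, and the number of arrays limits the precision.

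An elongase joins an activated fatty acid to malonyl-CoA. A reductase, a dehydratase and a second reductase then finish the round, and the chain has grown by one acetyl unit. The elongase sets which chains are accepted. ELOVL6 lengthens the saturated and monounsaturated products of fatty acid synthase, ELOVL1, ELOVL3 and ELOVL7 act on longer saturated and monounsaturated chains, ELOVL2 and ELOVL5 act on polyunsaturated chains, and ELOVL4 makes the very longest chains of skin, retina and testis. Elovl3 was first described as a gene of brown fat induced by cold, and it is also active in the sebaceous glands of the skin. Elovl6 is a target of the lipogenic factor SREBP-1c.

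A difference is given throughout as the log2 intensity on the array labelled DKO minus that on the array labelled ApoE-KO, so that 1 stands for a 2-fold higher signal on the former. An expression floor was set at an intensity of 196.9, the median over named probe sets of their log2 means. It is a convention and not a detection limit, and 9891 genes lay on or above it in their mean over both arrays. The column medians were 152.1 for the array labelled DKO and 157.65 for the array labelled ApoE-KO. The labels were checked against the targeted genes first. The Ucp1 signal was 2229.9 on the array labelled DKO and 218.95 on the array labelled ApoE-KO, which goes against the labels if its probes fall in the deleted part. Their position is not known here, so the arrays are named by their labels and every direction rests on them. The Apoe signal was 502 and 589, and the position of these probes relative to the disruption is not known here either.

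Of the 7 elongases, 2 were at least 2-fold apart between the arrays, Elovl3 and Elovl6, and both were higher on the array labelled DKO. None was at least 2-fold lower. Over all named genes the share at least 2-fold higher was 1.51%, and 0.527% were at least 2-fold lower. The remaining 5 elongases differed by between -0.06 and 0.59. By their mean over both arrays, 4 elongases lay above the floor (Elovl1, Elovl3, Elovl5 and Elovl6) and 3 lay below it (Elovl2, Elovl4 and Elovl7). Elovl3 reached the floor through the array where its signal was high, so no share is drawn from the members above it. Among all genes above the floor, 2.79% were past 2-fold upward and 0.698% downward.

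**Figure D1:**
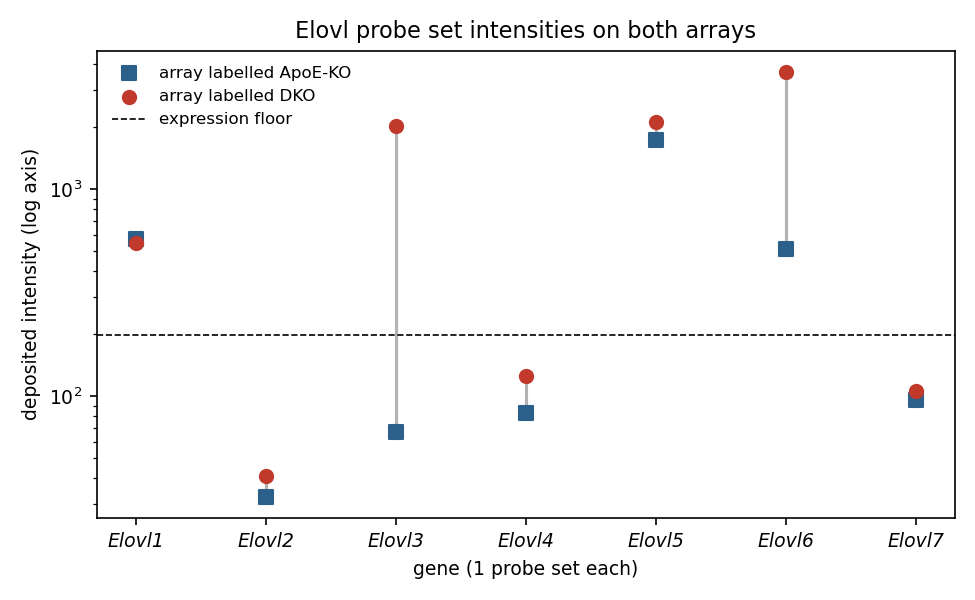
Deposited intensity of each Elovl probe set (log axis) on the array labelled DKO (circles) and the array labelled ApoE-KO (squares), 1 array per genotype, with a grey line joining the pair and the expression floor of 196.9 dashed. The pairs of Elovl3 and Elovl6 are far apart, those of Elovl1, Elovl5 and Elovl7 nearly touch, and Elovl2, Elovl4 and Elovl7 lie under the floor on both arrays.

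Elovl3, the elongase of saturated and monounsaturated very long chains in brown fat and sebaceous glands, had an intensity of 2008.7 on the array labelled DKO and 67.24 on the array labelled ApoE-KO. The signal was well above the floor on the first array and below it on the second. Without a detection call, whether the lower value was above background is not known here. The difference was 4.90, or 29.9-fold, and with the floor put in place of the lower value it was 3.35, or 10.2-fold. As measured, 0.0150% of all named genes had a larger difference in either direction. Among genes above the floor, which Elovl3 joined through its higher array, it ranked 1 toward the array labelled DKO as measured. With values under the floor raised to it, Elovl3 ranked 3, where Slc27a2 (3.78) and Fabp3 (3.59) came before it. The family was chosen by these same differences, so share and ranks only describe it. Intensities of different probe sets are not on 1 scale, so no elongase is ranked against another by level.

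Elovl6, which lengthens palmitate to stearate after fatty acid synthase, had an intensity of 3676.3 on the array labelled DKO and 510.51 on the array labelled ApoE-KO. Both values lay above the floor, so this difference of 2.85, or 7.20-fold, was measured on both sides. It ranked 8 from the top among genes above the floor, and 0.253% of those genes had a larger difference in either direction.

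Elovl5, an elongase of polyunsaturated chains made by the desaturases, had an intensity of 2116.82 on the array labelled DKO and 1719.45 on the array labelled ApoE-KO. Both were far above the floor and close to each other, with a difference of 0.30 or 1.23-fold. Differences of this size were common: 32.7% of genes above the floor had a larger one in either direction. Elovl1, which makes saturated and monounsaturated very long chains for sphingolipids, had 548.55 on the array labelled DKO and 572.54 on the array labelled ApoE-KO. Its difference of -0.06 was the only negative one of the 7, and 82.4% of genes above the floor had a larger difference in either direction.

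The other 3 elongases lay under the floor on both arrays. No detection call came with the data, so whether their signals were above background is not known here. Elovl4, known for the very longest chains of skin and retina, had 125.5 on the array labelled DKO and 83.15 on the array labelled ApoE-KO, and thus differed by 0.59. Among the 10047 genes below the floor, 2.57% had a larger difference in either direction, which places Elovl4 outside their middle 90% (-0.38 to 0.36) while short of 2-fold. Elovl2, the polyunsaturated elongase of liver and testis, had 41.18 and 32.69, a difference of 0.33 that was inside that range. Elovl7 had 106.3 and 96.14, a difference of 0.14.

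**Figure D2:**
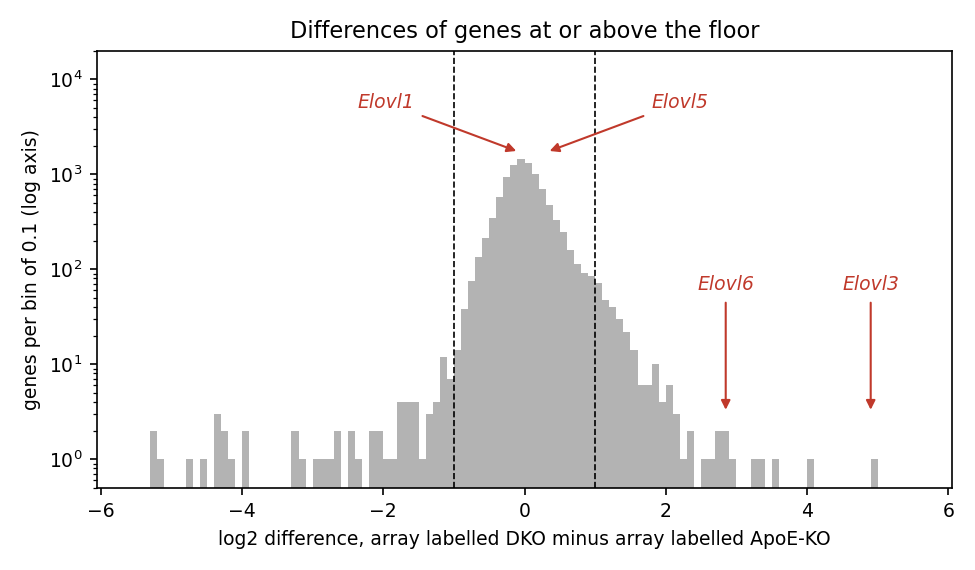
Number of genes (log axis) by log2 difference, array labelled DKO minus array labelled ApoE-KO, in bins of 0.1 for the 9891 genes on or above the floor, with dashed lines at 2-fold and arrows at the 4 elongases above the floor. Elovl1 (-0.06) and Elovl5 (0.30) lie in the central peak, and Elovl6 (2.85) and Elovl3 (4.90) lie in the thin right tail.

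The genes whose difference came closest to each of these 2 elongases were taken by the absolute distance between log2 differences over the 2 arrays, among genes above the floor. For Elovl6 they were Cidea, which encodes a protein of brown adipocyte lipid droplets (difference 2.90, distance 0.048), Adtrp, a hydrolase of fatty acid esters (2.80, distance 0.053), and Dio2, which encodes a thyroid hormone-activating deiodinase (2.97, distance 0.12). With values under the floor raised to it, Dio2 was at a distance of 0.59. Elovl3 ranked 1 as measured, so its closest genes could only be the next largest differences toward the array labelled DKO. They were Slc27a2, whose product activates very long chains (4.06, distance 0.84), the fatty acid-binding protein gene Fabp3 (3.59, distance 1.31) and Ucp1 (3.35, distance 1.55). Their order turned when values under the floor were raised to it, with distances of 0.42 for Slc27a2, 0.24 for Fabp3 and 0.0026 for Ucp1. The closest genes were not searched again under that rule. Likeness over 2 arrays rests on 1 difference per gene.

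The genes next to Elovl3 and Elovl6 on the chromosome had small differences. The 4 nearest named genes of Elovl3, 2 on each side, were Pprc1, Nolc1, Pitx3 and Gbf1, with differences between -0.04 and 0.17. Those of Elovl6 were Enpep, Pou5f1-rs4, Egf and Lrit3, with differences between -0.29 and 0.34. For Elovl5 the neighbours included Klhl31, a gene of skeletal muscle, with 45.96 on the array labelled DKO and 1658.31 on the array labelled ApoE-KO (-5.17, and -3.79 when its 2 probe sets were averaged), beside the small difference of Elovl5 itself. No test was run on neighbours, and gene order was taken from RefSeq (GRCm38.p6).

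The bases just upstream of the annotated start were read for the elongases, because Elovl6 and Elovl5 were both well above the floor on both arrays and differed in how far apart their arrays were. RefSeq windows (GRCm38.p6) were found for 6 of the 7 genes, 8 windows in all, and Elovl3 is named only. The 250 bases before the start are shown 5′ to 3′ in the direction of the gene, Elovl6 from chr3:129532136-129532385 (plus strand) and Elovl5 from chr9:77917115-77917364 (plus strand). Capitals mark matches to the motifs searched, on either strand.
Elovl6: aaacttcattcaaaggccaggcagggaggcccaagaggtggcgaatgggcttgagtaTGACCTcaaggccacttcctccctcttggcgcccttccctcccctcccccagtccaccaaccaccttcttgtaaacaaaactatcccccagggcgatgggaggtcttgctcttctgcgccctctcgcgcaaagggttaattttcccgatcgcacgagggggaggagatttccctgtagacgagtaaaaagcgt
Elovl5: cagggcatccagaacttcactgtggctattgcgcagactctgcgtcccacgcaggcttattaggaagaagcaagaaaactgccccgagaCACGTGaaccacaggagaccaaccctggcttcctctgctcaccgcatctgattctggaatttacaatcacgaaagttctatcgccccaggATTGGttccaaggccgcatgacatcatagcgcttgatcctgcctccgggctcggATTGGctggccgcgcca
The motifs were the sterol regulatory element TCACNCCAC, the E-box CACGTG, the nuclear receptor half-site AGGTCA, its direct repeats DR1 and DR4 (the half-site repeated after 1 or 4 free bases, which count as half-sites too), the CCAAT box CCAAT, the GC box GGGCGG and the TATA box TATAAA. The Elovl6 window held 1 match, a half-site on the minus strand whose leftmost printed base lies 193 bases before the start, and 14.0% of the 32851 windows of this length held such a half-site. The Elovl5 window held 1 E-box, 161 bases before the start (6.02% of windows), and 2 CCAAT boxes on the minus strand (33.8% of windows). The GC box (32.7% of windows) was found in neither, whereas the windows of Elovl4 and Elovl7, both of those of Elovl1 and 1 of the 2 of Elovl2 held it. The sterol element, found in 1.05% of windows, matched in none of the 8 elongase windows. These are matches of letters, and the arrays carry no measurement of binding.

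The other enzymes of the elongation cycle did not share the size of difference seen in Elovl3 and Elovl6. Of the 7 genes, all measured, 6 lay above the floor. On the array labelled DKO, 1 was at least 2-fold higher and none was lower by that much, beside 1.51% and 0.527% of all named genes. Over the 7 genes the median difference was 0.31, beside -0.01 for all named genes. Hsd17b12, the reductase of the second step, was the member past 2-fold, with 5556.4 on the array labelled DKO and 2489.7 on the array labelled ApoE-KO (1.16). Tecr, the reductase of the last step, had 4317.6 and 3213.1 (0.43).

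The dehydratases of the third step lay closer together. Hacd1, a dehydratase of heart and skeletal muscle, had 951.6 and 716.7 (0.41). Hacd2 had 5046.0 and 4083.4 on the probe set used (0.31) and 0.69 on its second probe set. Hacd3 stood at 0.11 and Hacd4 at -0.36, the lowest of the list. Tecrl, a relative of Tecr in heart and muscle, lay below the floor on both arrays (21.78 and 19.56).

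The desaturases, which place double bonds in the chains that elongases lengthen, differed little. Of 8 genes, 0 were at least 2-fold apart, beside 2.04% of all named genes, and their median difference was -0.05. Scd1, which desaturates the stearate that ELOVL6 makes, had 13181.2 on the array labelled DKO and 13585.2 on the array labelled ApoE-KO (-0.04). Scd2 stood at 0.52 above the floor. Scd3 (0.57) and Scd4 (0.14) lay below it on both arrays, and Scd3 is a sebaceous gland isoform. The polyunsaturated pathway desaturases Fads1 (-0.38) and Fads2 (-0.06), whose products ELOVL5 and ELOVL2 lengthen, were both lower, each by less than 2-fold. Fads3 stood at -0.25 and Fads6 at -0.09. The large difference of Elovl6 was measured beside desaturase differences between -0.38 and 0.57.

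The enzymes that make the substrate of ELOVL6 were higher, by less than Elovl6 itself. All 8 genes of cytosolic fatty acid synthesis lay above the floor and had differences above 0, beside 48.2% of all genes above the floor. Their differences lay between 0.56 and 1.30, with a median of 0.98. Of the 8 genes, 4 were at least 2-fold higher, beside 2.79% of all genes above the floor. These 4 were the acetyl-CoA carboxylase gene Acacb (1.30), Acly, which makes cytosolic acetyl-CoA (1.27), the lipogenic cofactor gene Thrsp (1.03) and the acetyl-CoA synthetase gene Acss2 (1.01). Fasn, the synthase whose palmitate ELOVL6 lengthens, named after its values were seen, had 7875.8 and 4376.8 (0.85). The separate mitochondrial synthesis pathway had a median of 1.19 over 5 measured genes. At least 2-fold higher were 3 of them, beside 2.79% of all genes above the floor. They were the enoyl reductase gene Mecr (1.98), the acyl carrier gene Ndufab1 (1.36) and the ketoacyl reductase gene Cbr4 (1.19), and the synthase gene Oxsm stood at 0.63.

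The 14 measured transcriptional regulators of lipogenesis and of elongase genes all lay above the floor, with a median of 0.21. Of these, 2 were at least 2-fold higher and 0 lower, beside 2.79% and 0.698% of all genes above the floor. They were Ppara, a receptor for fatty acids that drives their oxidation, with 1009 on the array labelled DKO and 242.7 on the array labelled ApoE-KO (2.06), and its coactivator Ppargc1a (1.44). Mlxipl, which encodes the glucose-sensing factor ChREBP, stood at 0.49 and Insig1, which retains SREBP in the endoplasmic reticulum, at 0.48. Srebf1, the gene of SREBP-1c named after its values were seen, had 1625.4 and 1653.3 (-0.02), beside the 7.20-fold difference of Elovl6. The arrays measure transcripts, and the processing of SREBP to its active form was not measured.

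**Figure D3:**
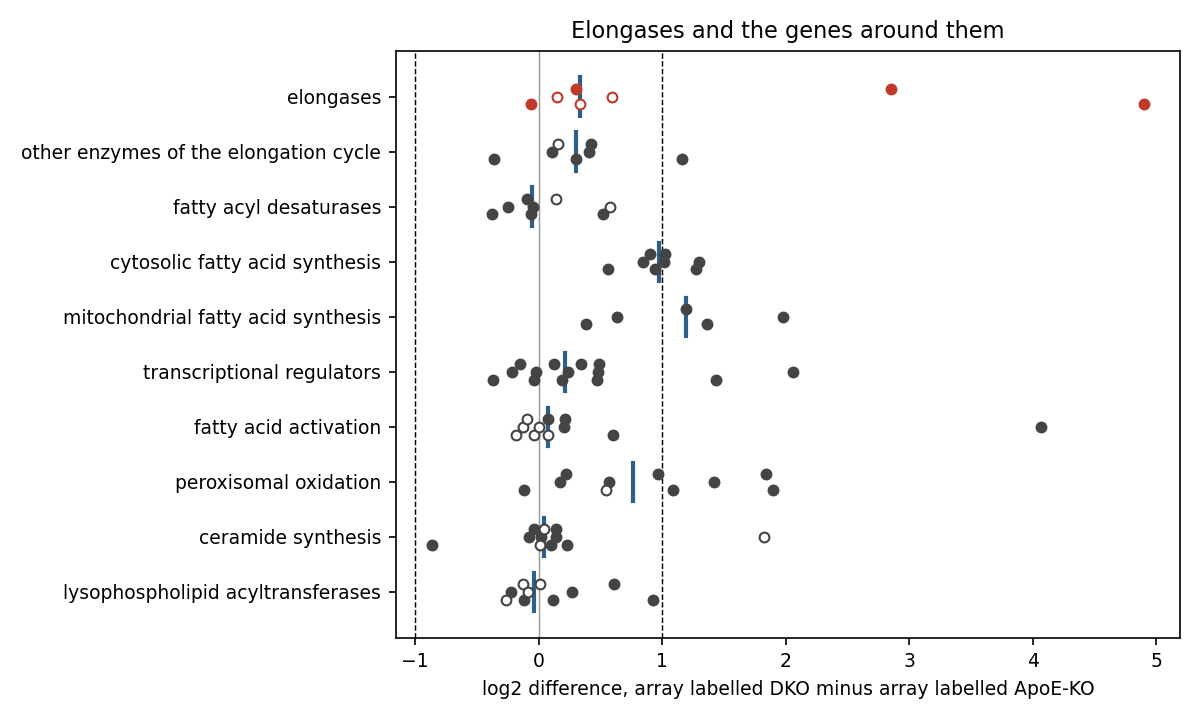
Log2 difference, array labelled DKO minus array labelled ApoE-KO, of each measured gene in the elongase family (red) and in 9 lists of genes around it (grey), with filled points for genes above the floor, open points for genes below it, blue bars at list medians and dashed lines at 2-fold. As measured, Elovl3 (4.90) and Slc27a2 (4.06) lie furthest right, and the desaturases lie between -0.38 and 0.57.

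Genes that use or remove very long chains were mixed. In fatty acid activation, 11 genes were measured, 1 was at least 2-fold higher, beside 1.51% of all named genes, and the median was 0.07. The exception was Slc27a2, with 2695.4 on the array labelled DKO and 161.3 on the array labelled ApoE-KO (4.06, or 3.78 when the lower value was set to the floor). Acsl5 followed at 0.60, and Acsl4 and Slc27a4 both stood at 0.21. In peroxisomal oxidation, which shortens very long chains, the median was 0.77 over 10 measured genes. Of these, 4 passed 2-fold upward and none downward, beside 1.51% and 0.527% of all named genes. They were the bifunctional enzyme gene Ehhadh (1.89), the fatty acid transporter gene Abcd3 (1.84), the thiolase gene Acaa1b (1.42) and the sterol carrier gene Scp2 (1.09).

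In ceramide synthesis, which takes up very long acyl chains such as those made by ELOVL1, the median was 0.04 over 11 measured genes. Above the floor lay 8, none of them 2-fold apart, beside 2.79% of all genes above the floor at least 2-fold higher and 0.698% lower. Cers6, a ceramide synthase of long chains, had the largest difference of the 8 at -0.87. Cers2, the synthase of very long chains, stood at 0.23 and Sptlc1 and Kdsr both at 0.14. Lysophospholipid acyltransferases, which place acyl chains, some of them polyunsaturated, in phospholipids, had a median of -0.04 over 10 genes. Of these, 0 were at least 2-fold apart, beside 2.04% of all named genes. Lpcat3 (0.92), Agpat3 (0.61), Agpat5 (0.27) and Lpcat1 (-0.23) had the largest differences above the floor.

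Markers of cell types were read beside the elongases, because fewer cells of a type and less RNA per cell cannot be told apart in pooled tissue. General adipocyte markers were nearly level in their median, which was 0.04. Their summed intensity was 44698 on the array labelled DKO and 44939 on the array labelled ApoE-KO. Of the 9 measured genes, 9 differed by less than 2-fold, a size passed by few genes above the floor (2.79% upward, 0.698% downward). The lipid droplet gene Plin4 stood at -0.60, the adipokine gene Adipoq at -0.12, the lipase gene Pnpla2 at 0.12 and the hormone gene Retn at -0.12. All 9 were far above the floor on both arrays, with intensities between 1486 and 9777, and they are defining genes of the labelled tissue. The brown and beige adipocyte marker list was chosen with earlier results of these data known. Of its measured genes, 9 of 9 were at least 2-fold higher, beside 2.79% of all genes above the floor. The list had a median of 2.71 and summed intensities of 21321 and 3674. Fabp3 (3.59), the cytochrome c oxidase subunit gene Cox7a1 (3.23), Dio2 (2.97, or 2.26 with the floor) and Cidea (2.90) led that list. Prdm16, a regulator gene of brown and beige fat kept in the list of transcriptional regulators, stood at 0.13. Its intensity was 344.6 on the array labelled DKO and 315.9 on the array labelled ApoE-KO, and it was named after its values were seen. The part of brown or beige cell number in the elongase differences was not tested. Elovl6 lay within the range of the brown and beige marker list (1.14 to 3.59). Elovl3 lay above that range as measured and within it when its lower value was set to the floor.

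Skin and sebaceous gland markers, read because Elovl3, Elovl4 and Scd3 are active there, lay below the floor on both arrays in 14 of 14 genes, at intensities of at most 181.5. Their median difference was 0.02, and their summed intensity was 1283 on the array labelled DKO and 1278 on the array labelled ApoE-KO. None was at least 2-fold apart, as for most of the 10047 genes below the floor (26 were at least 2-fold higher and 36 lower). The part of skin or sebaceous cells in the elongase values was not tested.

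Skeletal muscle markers were at least 2-fold lower on the array labelled DKO in 19 of 19 genes, beside 0.527% of all named genes. Their median was -4.17, or -3.34 with values under the floor raised to it, and their summed intensity was 2832 on the array labelled DKO and 45371 on the array labelled ApoE-KO, with 4 of 19 at or above the floor on the first array and 19 of 19 on the second. As measured, the largest differences were those of Atp2a1 (-5.25), Myh4 (-5.22), Actn3 (-4.71) and Tnnt3 (-4.60), whose signals on the array labelled DKO all lay under the floor. Raised to it, they became -4.91, -4.45, -3.72 and -4.46, and Actn3 then fell behind Pygm (-4.17), Acta1 (-3.99) and Ckm (-3.74). The part of muscle transcripts in the elongase differences was not tested. B cell markers, read because the depot can hold a lymph node, were lower on the array labelled DKO, with 4 of 5 measured genes at least 2-fold lower, a median of -1.11 and summed intensities of 2281 and 4727. They were Ms4a1 (-1.16), Fcer2a (-1.15), Cr2 (-1.11) and Cd79a (-1.10), and their part in the elongase values was not tested.

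Hepatocyte markers, read for Elovl2, had a median of 0.19 over 7 measured genes. Alb was the member at least 2-fold higher, with 837.2 and 417.1 (1.01), beside 1.51% of all named genes. Apoa2 stood at 0.58 and Cyp2e1, which adipose tissue also expresses, at -0.01. The other 4 lay below the floor, and the summed intensity was 11915 on the array labelled DKO and 11381 on the array labelled ApoE-KO. Mammary and luminal epithelium markers had a median of 0.14 over 7 measured genes, with Krt8 (0.14) as the single member above the floor and summed intensities of 668 and 583. Csn3, named after its values were seen, was past 2-fold with both intensities far below the floor (44.6 and 18.9). Schwann cell markers had a median of -0.13 over 3 measured genes, with Mbp at -0.27 and Sox10 at -0.12. No marker of any list had an intensity of 0.

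**Figure D4:**
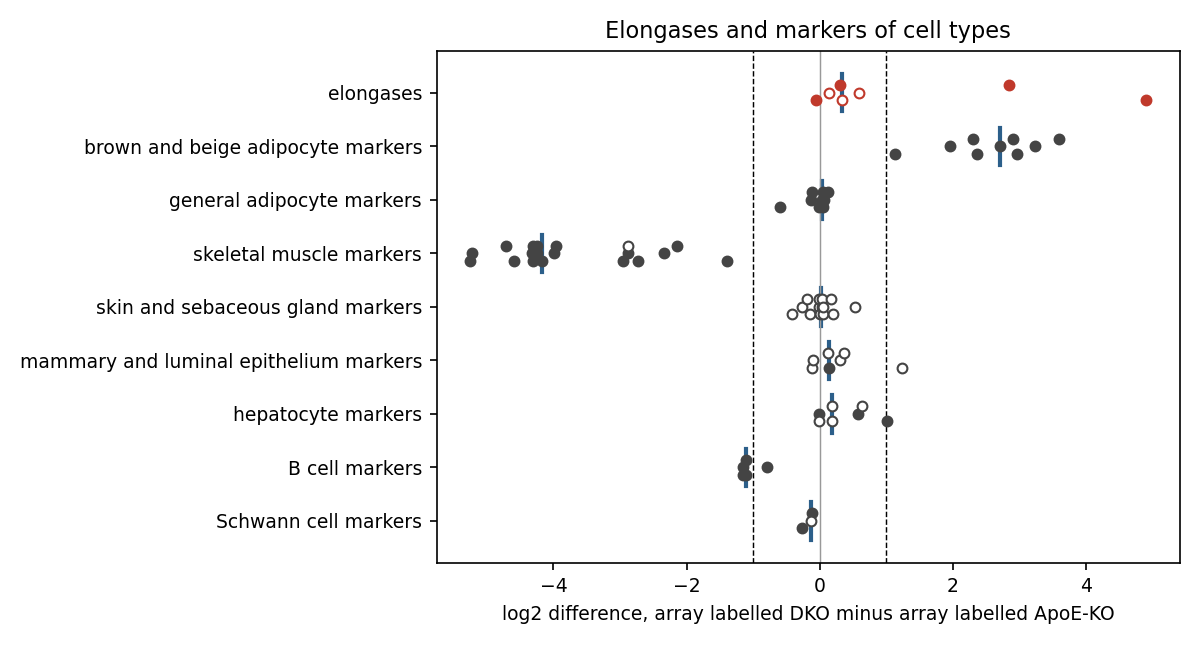
Log2 difference, array labelled DKO minus array labelled ApoE-KO, of the elongases (red) and of marker genes of 8 cell types (grey), with filled points above the floor, open points below it, blue bars at list medians and dashed lines at 2-fold. Brown and beige markers lie between 1.14 and 3.59, skeletal muscle markers between -5.25 and -1.40, and general adipocyte markers near 0.

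The differences of the 7 elongases were recomputed under other scalings and low-value rules. Elovl6 stayed between 2.73 and 2.90 and Elovl3 between 3.35 and 4.95, and both remained at least 2-fold higher under each of the 6 settings. The mean of probe sets could change no elongase, since each had 1 probe set. Raising values to the floor could not change Elovl6, Elovl5 or Elovl1, which lay above it on both arrays. Elovl5 stayed between 0.23 and 0.35 and Elovl1 between -0.08 and -0.01. Elovl2, Elovl4 and Elovl7 became 0 when intensities below the floor were set to the floor, since both of their values were under it.

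**Figure D5:**
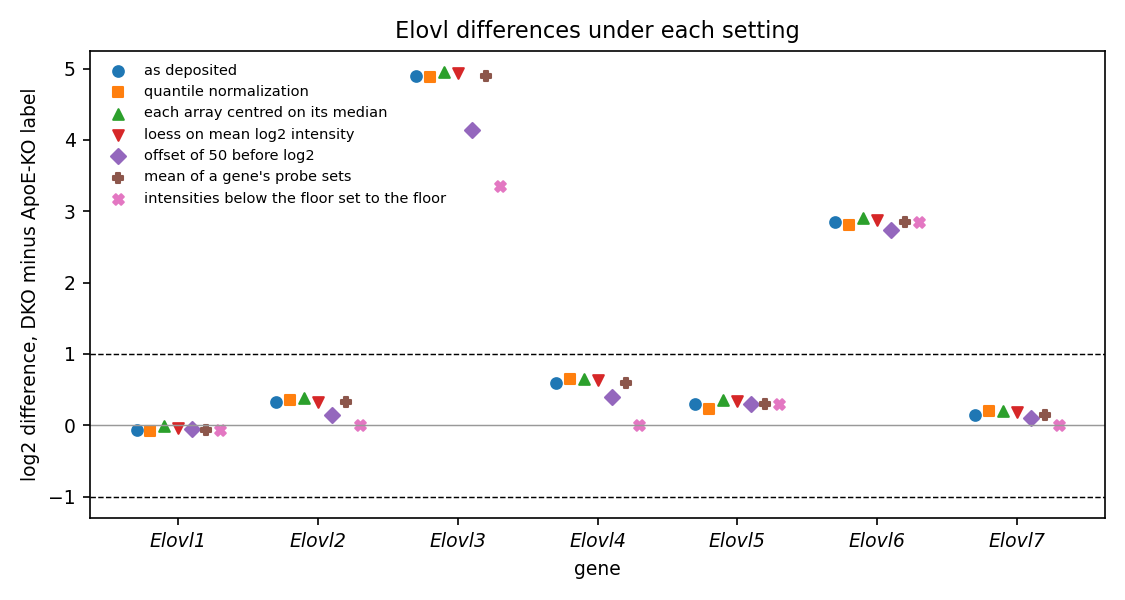
Log2 difference of each Elovl gene (array labelled DKO minus array labelled ApoE-KO) as deposited and under 6 other settings, 1 symbol per setting, with dashed lines at 2-fold. Elovl6 keeps to a narrow band (2.73 to 2.90), and Elovl3 is lower with an offset of 50 (4.13) and with its lower value set to the floor (3.35).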

How the data were processed

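Total RNA was extracted with Trizol and biotin-labelled, per the labels' protocols. The authors deposited 1 linear intensity per probe set and array (35557 probe sets, 3.55 to 23635.65). Their background correction, summarisation and scaling were not given in the sources used here. No detection call came with them. Log2 was taken with no pseudocount (Python 3.11.15, numpy 2.4.6, pandas 2.3.3), and the arrays were assigned by genotype label. The platform annotation gave 1 symbol to 21789 probe sets, several to 1621, which were not used, and none to 12147. RefSeq held the Entrez identifiers of 21698 and changed 0 symbols. Where a gene had more than 1 probe set (999 genes), the brightest on average was used.

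Single arrays per group allow no test, so differences were described by a 2-fold size. The members and gene lists were chosen with earlier results of these data known. Named genes were all elongases, cycle enzymes and desaturases, Ucp1 and Apoe, the largest differences above the floor in each other list (up to 4), and the 3 genes closest in difference to each elongase past 2-fold. Motif and neighbour descriptions, and ranks and distances with values under the floor raised to it, were added after the values were seen. Alternatives were quantile normalization, median centring, loess (statsmodels 0.14.6, span 0.4), an offset of 50, the mean of probe sets, other floors and thresholds. The calculation was run on simulated data with large planted differences and little noise, which checks the code and not the noise of these arrays.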

Additional observations from a re-analysis of the deposited data

How the results depend on the processing

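Of 42 recomputed elongase differences, 42 kept their side of the 2-fold size, and none that was past 2-fold changed direction. Some of these outcomes were fixed in advance. Averaging 1 probe set changes nothing. Raising values to the floor changes nothing for genes above it on both arrays, and gives no difference for genes under it on both. The number of elongases at least 2-fold higher was 2, and became 1 with the floor at percentile 75, where the mean intensity of Elovl3 fell below it. The elongase median of 0.33 became 0 with values under the floor raised to it, 1.29 as the mean of members and 1.57 over members above the floor, so it is a weak description of a family with 2 large and 5 small differences. Among genes above the floor, the count at least 2-fold higher (276) became 749 at 1.5-fold and 52 at 3-fold. The count at least 2-fold lower (69) became 369 and 38 at these thresholds, 105 with no floor and 26 with the floor at percentile 75, by construction. Other scalings moved the median of all genes by at most 0.052. Of 143 recomputed list medians, 121 moved by 0.1 or less. No paired analysis was possible because each group has 1 array, and for the same reason no replicate could be left out. Signals under the floor limit what can be said of Elovl2, Elovl4 and Elovl7.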

Other observations

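Among the lists around the elongases, Sptlc3, a subunit of serine palmitoyltransferase, had an intensity of 207.3 on the array labelled DKO and 58.55 on the array labelled ApoE-KO. It was 1 of the 11 ceramide genes measured and lay below the floor in its mean, at a difference of 1.82 (0.07 when its lower value was raised to the floor). It was named after its values were seen. Next to the elongases on their chromosomes, 3 of 28 neighbouring genes were at least 2-fold apart, beside 2.04% of all named genes in either direction. Besides Klhl31, they were Tmem14c, a mitochondrial membrane protein gene near Elovl2, with 1379 and 556.2 (1.31), and Sh3bgrl2 near Elovl4, with 380 and 160.1 (1.25). Elovl2 and Elovl4 themselves lay below the floor on both arrays.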
